A study of Mus musculus with 29 samples.

Results

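The sarcomere genes of the mouse heart were examined as a set of 35 genes, taken by symbol from the 29955 genes of the deposited expression table. They code for titin, thick filament proteins, troponins, tropomyosins, actin and the proteins that set thin filament length, Z-disc and M-band proteins, desmin and the small costamere protein Smpx. RNA was sequenced from ventricles of C57BL6 mice (male C57BL/6J in the study's methods) that entered the protocol at 3 months of age. The heart failure (HF) protocol ran for 5 weeks: the drinking water held 1% NaCl and L-NAME, an inhibitor of nitric oxide synthases, at 0.3 mg/ml, and from 1 week on an osmotic pump with a life of 28 days gave angiotensin II at 0.7 mg/kg/day. Hearts were taken during the protocol at HF week 3 (2 libraries) and at its end at HF week 5 (3 libraries). In the recovery groups the mice completed the 5 weeks of HF induction, after which the water was plain and the pump had run out, and hearts were taken at weeks 7 (2 libraries), 9 (2), 11 (3), 13 (2) and 19 (5). Control mice of week 19 were kept as age-matched controls of the last recovery group (5 libraries); the labels name no vehicle or sham pump. The series also has controls labelled for HF week 5, which were not used because 5 columns stand for 4 labelled samples. Control week 19 mice took their place and were 14 weeks further into the study than HF week 5 mice. In that comparison age and treatment therefore cannot be told apart. The study's methods say that the experiment was repeated in 4 separate cohorts, and the labels do not say which cohort a library came from. A difference between cohorts therefore cannot be told apart from one between groups. The labels name no cage or pooling of hearts, and p-values measure the spread between the libraries.

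The sarcomere is the contractile unit of striated muscle. Thick filaments of myosin heavy and light chains pull on thin filaments of actin, and troponin and tropomyosin on the thin filament let this happen when calcium rises. Z-discs anchor the thin filaments, the M-band crosslinks the thick filaments, and titin spans the distance between them. Heart, slow skeletal and fast skeletal muscle use different genes for many of these proteins, the fetal heart uses some that the adult heart replaces, and a return of fetal isoforms is a known feature of the stressed heart.

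Levels are in FPKM, the sequenced fragments of a gene scaled to the length of its transcript and to the depth of the library. In Control week 19 hearts the mean level ran from 13830 FPKM for Myl3, the ventricular essential light chain, and 11023 FPKM for Tnni3, cardiac troponin I, down to 0.202 FPKM for Tnni1, the slow skeletal and fetal troponin I. Of the 35 genes, 3 (Myh6, Myl2 and Actc1) were listed at 0 in every library of Control week 19. Every one of the 35 averaged 0.5 FPKM or more across the 24 libraries and entered the test, but Tnni1 did so only through HF week 5 library 1: its mean was 0.753 FPKM over all libraries and 0.288 FPKM without that one.

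Some libraries stood apart before any comparison. The summed level of 7 atrial cardiomyocyte genes (Myl4, Myl7, Sln, Bmp10, Mybphl, Dkk3 and Nr2f2) was 40360 FPKM at its highest in HF week 5, in library 1, 431 FPKM in library 2 and 21.9 FPKM in library 3, from 7841 to 14333 FPKM in HF week 3, and from 7.99 to 18.4 FPKM in all recovery and control libraries. Myl7, the atrial regulatory light chain, was at 18388, 152 and 6.16 FPKM in the HF week 5 libraries, at 1805 and 5773 FPKM in HF week 3 and at 0.166 to 1.12 FPKM in Control week 19. Bmp10 did not pass the filter on low values, and the other 6 were called higher when HF week 5 was compared with Control week 19, against 11.6% of all genes tested. Of the 6, Mybphl passed the filter only through HF libraries in which it was high, so its call supports nothing. It was at most 0.397 FPKM in any recovery or control library. Nppa, atrial natriuretic peptide, which the fetal and stressed ventricle also makes, was called higher too and is not in the sum, since it is listed at 0 in HF week 3. The labels give the tissue as ventricle. In the study's methods, hearts were cut at mid heart and the apical part was frozen for RNA sequencing. HF week 3 library 1 also held values above 0 for 12816 genes, against 16339 to 18091 in the other libraries. Over the tested genes the correlation between libraries of a group, on the log2 scale, was 0.885 in HF week 3, 0.952 to 0.984 in HF week 5 and 0.962 to 0.991 in the other groups. The 13 skeletal muscle genes summed to 1067 to 2679 FPKM in HF week 5 and 2553 to 2933 FPKM in Control week 19, nearly all of it from Ckm, the muscle creatine kinase that the heart also makes. The fast myosin heavy chains Myh1, Myh2 and Myh4 did not exceed 0.0083 FPKM in any HF week 5 library, whereas Pvalb, parvalbumin, was at 0.633 to 16.6 FPKM in HF week 5 and 0.0831 to 0.264 FPKM in control hearts, and Actn3, alpha-actinin 3, at 0.0391 to 2.69 FPKM and at most 0.229 FPKM. Of the 4 genes of the skeletal list that were tested, Pvalb was called higher and Cacna1s lower, where 24.0% of all genes tested were called. Pvalb was at most 1.41 FPKM in any recovery library. The HF libraries in which it was high made up most of its mean in the filter on low values, so its call supports nothing. The part of these skeletal genes in the levels of fast skeletal isoforms was not tested.

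The first question was which sarcomere genes differed between failing hearts at week 5 and control hearts. Of the 32 genes that can be given a fold change, 6 were lower and 5 were higher in HF week 5 (limma on log2(FPKM + 0.5), Benjamini-Hochberg adjusted p under 0.05 over all genes tested). The 11 called genes were 34.4% of the 32, against 24.0% of all genes tested in this comparison, where 12.4% were lower and 11.6% higher. The members and the other gene lists were chosen with earlier results of these data known, so their called shares are descriptions. Under median centring the calls over all genes split into 1107 higher and 1868 lower in place of 1473 and 1579, while the members stayed at 5 and 6. Under quantile normalization the members split into 5 higher and 9 lower, with Myl3, Tnnt2 and Tpm1 also called lower, and 26.6% of all genes tested were called. The members' median log2 fold change was -0.02, and that of all genes tested was 0.04. The lower genes were Mypn, Tmod1, Ldb3, Myot, Pdlim5 and Lmod2, which belong to the Z-disc and to the ends of the thin filament. The higher genes were Myl1, Tnnt3, Tpm2 and Mybpc2, which are skeletal or minor isoforms, and Tnni1. Since Tnni1 entered the test only through a library in which it was high, its call supports nothing; without it 10 of 31 members (32.3%) were called, 4 of them higher. The libraries of the groups did not overlap for 13 of the 32 genes, the 11 called ones with Neb, higher, and Nebl, lower; over all genes tested the libraries did not overlap for 29.5%.

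**Figure D1:**
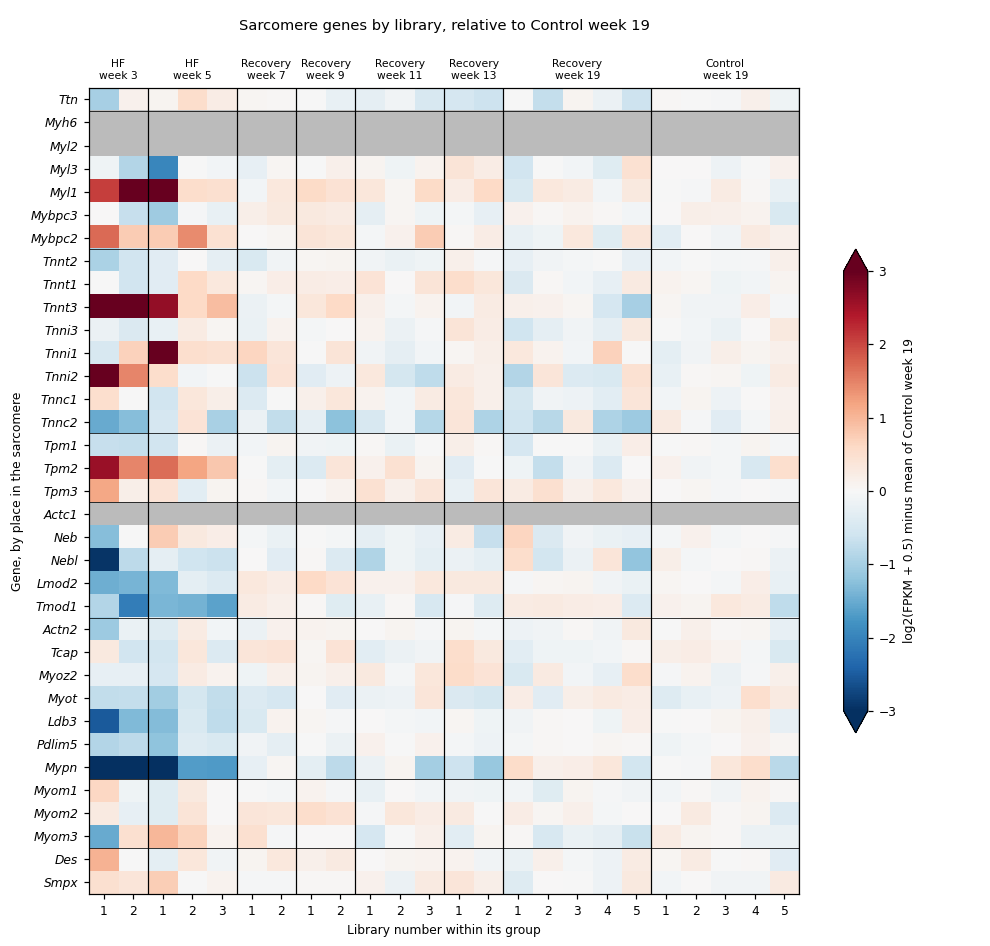
Heat map of the 35 sarcomere genes (rows, by place in the sarcomere) in the 24 libraries (columns, by group), as log2(FPKM + 0.5) minus the mean of Control week 19. Rows in grey are the 3 genes listed at 0 in every library of at least 1 group. Mypn, Tmod1 and Ldb3 are below the control mean (blue) and Tpm2 above it (red) in all 5 HF columns.

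Of the 7 Z-disc genes, 4 fell in HF week 5. Mypn codes for myopalladin, which links alpha-actinin to nebulin-family proteins and carries the ankyrin repeat protein Ankrd1. Its levels were 0.669, 2.73 and 2.69 FPKM in HF week 5 and 9.71, 9.59, 12.6, 14.4 and 5.37 FPKM in Control week 19. Every HF library was below every control, and library 1 was the lowest of the HF libraries. The group means were 2.03 ± 1.18 FPKM (SD, n = 3) and 10.3 ± 3.42 FPKM (SD, n = 5), a ratio of 0.197. On the log2 scale its fold change was -2.17 (SE 0.34, adjusted p = 0.000317), the largest fall among the members (limma). Without HF week 5 library 1 it was -1.69 (adjusted p = 0.00393).

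Ldb3 codes for Cypher (ZASP), a PDZ and LIM protein that binds alpha-actinin at the Z-disc. It was at 229.8, 411 and 331 FPKM in HF week 5 and at 556, 566, 599.8, 628 and 477 FPKM in Control week 19, again with no overlap. Its log2 fold change was -0.84 (SE 0.21, adjusted p = 0.00777), and without HF week 5 library 1 it was -0.61 (adjusted p = 0.0837). Pdlim5, another PDZ and LIM protein of the Z-disc, was at 102, 179 and 172 FPKM in HF and at 216, 224, 236, 257 and 243 FPKM in control hearts. The control libraries lay close together, and the log2 fold change was -0.68 (SE 0.14, adjusted p = 0.00167), or -0.42 (adjusted p = 0.00912) without library 1. Myot, myotilin, a Z-disc crosslinker best known from skeletal muscle, was at 11.9, 17.2 and 14.7 FPKM in HF and at 18.8, 21.05, 22.5, 35.2 and 29.9 FPKM in control hearts. The highest HF library and the lowest control were near each other, and the log2 fold change was -0.76 (SE 0.19, adjusted p = 0.00741), or -0.63 (adjusted p = 0.0669) without library 1. The other 3 Z-disc genes were not called: Actn2, alpha-actinin 2, at -0.07 (adjusted p = 0.784), Tcap, telethonin, at -0.21 (adjusted p = 0.517) and Myoz2, calsarcin 1, at -0.05 (adjusted p = 0.874), each a log2 fold change from limma.

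Among the genes for actin and thin filament length, the RNA of both pointed-end genes fell. Tmod1 codes for tropomodulin 1, which caps the pointed end, and Lmod2 for leiomodin 2, which promotes its elongation. Tmod1 was at 10.4, 10.01 and 8.66 FPKM in HF week 5 and at 29.9, 29.3, 34.3, 32.9 and 15.9 FPKM in Control week 19. The 3 HF libraries were within 2 FPKM of each other and below all controls, of which library 5 was the lowest. The group means were 9.69 ± 0.914 FPKM (SD, n = 3) and 28.5 ± 7.31 FPKM (SD, n = 5), a ratio of 0.340. For Tmod1 the log2 fold change was -1.46 (SE 0.25, adjusted p = 0.00054), and without HF week 5 library 1 it was -1.51 (adjusted p = 0.00341). Lmod2 was at 64.7, 134 and 123 FPKM in HF and at 170.3, 166, 156, 189 and 141 FPKM in control hearts. The HF libraries were all lower, libraries 2 and 3 by a small margin, and the log2 fold change was -0.67 (SE 0.17, adjusted p = 0.00716), or -0.34 (adjusted p = 0.0622) without library 1. Nebl, nebulette of the cardiac Z-disc, had a log2 fold change of -0.50 (adjusted p = 0.346, limma) and Neb, nebulin of skeletal muscle, one of 0.43 (adjusted p = 0.254, limma). Neb was low in both groups, at 0.664 to 1.56 FPKM.

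**Figure D2:**
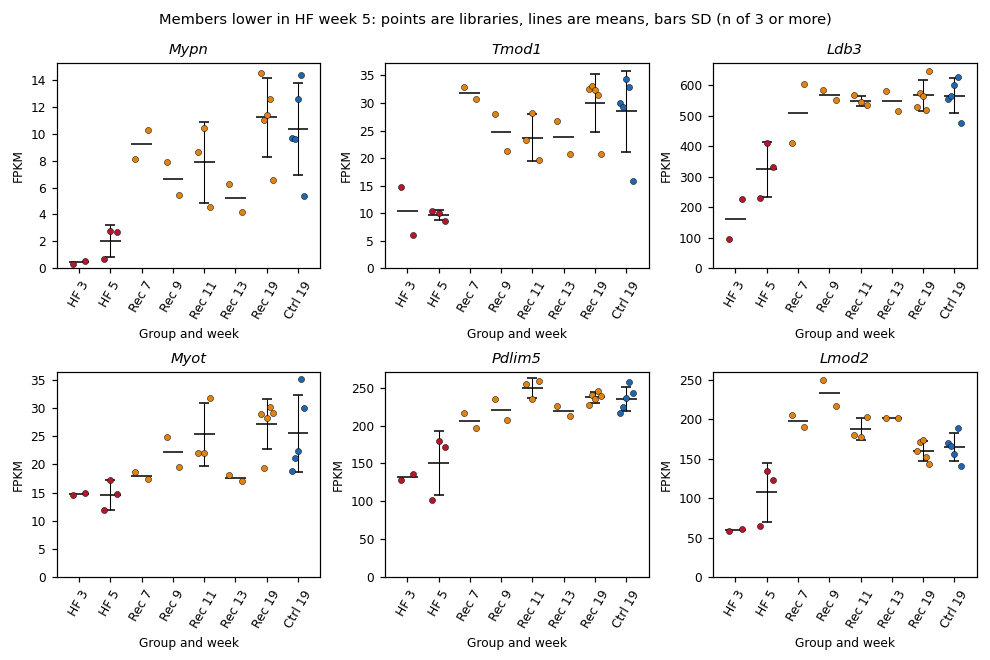
FPKM (y axis) of the 6 members lower in HF week 5, in each library by group and week (x axis). Points are libraries, horizontal lines group means and vertical bars SD where a group has at least 3 libraries. The HF week 5 points are below all Control week 19 points in every panel, and the Recovery week 19 points are above the HF week 5 points.

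The promoters of members that moved together were read from RefSeq (build GRCm38.p6, 250 bases before the start of the gene to 50 bases after it) and searched on both strands for 3 motifs known from muscle promoters: M-CAT, CATTCC, the site of TEAD factors; the CArG box of serum response factor; and the MEF2 site. Of the 35 genes, 29 had a promoter in the table, 38 promoters in all. M-CAT was in 11 of the 38 (28.9%) and in 14.7% of all 32851 promoters of this length, the CArG box in 6 (15.8%) and in 1.63% of all, and the MEF2 site in 4 (10.5%) and in 3.19% of all. M-CAT was in 28.6% of the 7 promoters of members lower in HF week 5 and in 40.0% of the 5 of higher members. Myh6, Myl3, Nebl, Tnnc1, Tnnt2, Tpm1 and Ttn held it too and were not called or had no fold change. The called members with M-CAT were Mypn and Tmod1, which were lower in HF week 5, and Myl1 and Mybpc2, which were higher. Ldb3, lower, held a CArG box. These 5 promoters are shown 5' to 3' on the strand of the gene, with the motif letters in capitals; a motif on the other strand reads as its reverse complement, GGAATG for M-CAT.
Mypn (chr10:63203903-63204202, minus strand): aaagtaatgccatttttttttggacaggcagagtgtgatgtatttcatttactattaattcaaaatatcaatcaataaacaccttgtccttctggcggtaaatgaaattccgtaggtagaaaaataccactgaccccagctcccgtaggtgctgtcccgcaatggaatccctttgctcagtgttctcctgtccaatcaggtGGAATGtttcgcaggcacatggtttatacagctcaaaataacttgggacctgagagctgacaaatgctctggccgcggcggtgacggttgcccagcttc
Tmod1 (chr4:46038972-46039271, plus strand): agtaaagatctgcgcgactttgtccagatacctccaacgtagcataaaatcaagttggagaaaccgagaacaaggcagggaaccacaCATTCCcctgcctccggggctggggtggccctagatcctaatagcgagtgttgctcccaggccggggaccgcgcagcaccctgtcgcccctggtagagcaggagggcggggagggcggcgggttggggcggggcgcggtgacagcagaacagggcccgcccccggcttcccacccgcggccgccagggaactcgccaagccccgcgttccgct
Ldb3 (chr14:34588632-34588931, minus strand): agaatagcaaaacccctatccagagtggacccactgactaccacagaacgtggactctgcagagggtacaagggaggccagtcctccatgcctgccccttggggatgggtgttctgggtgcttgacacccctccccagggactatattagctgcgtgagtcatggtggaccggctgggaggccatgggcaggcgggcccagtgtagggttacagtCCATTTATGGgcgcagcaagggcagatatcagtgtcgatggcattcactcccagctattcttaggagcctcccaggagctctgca
Myl1 (chr1:66945007-66945306, minus strand): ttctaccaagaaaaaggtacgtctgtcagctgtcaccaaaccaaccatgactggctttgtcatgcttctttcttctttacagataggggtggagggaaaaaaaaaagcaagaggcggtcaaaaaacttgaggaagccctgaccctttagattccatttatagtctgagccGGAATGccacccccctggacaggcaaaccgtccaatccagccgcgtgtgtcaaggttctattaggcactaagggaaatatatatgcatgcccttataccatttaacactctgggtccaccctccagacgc
Mybpc2 (chr7:44524620-44524919, minus strand): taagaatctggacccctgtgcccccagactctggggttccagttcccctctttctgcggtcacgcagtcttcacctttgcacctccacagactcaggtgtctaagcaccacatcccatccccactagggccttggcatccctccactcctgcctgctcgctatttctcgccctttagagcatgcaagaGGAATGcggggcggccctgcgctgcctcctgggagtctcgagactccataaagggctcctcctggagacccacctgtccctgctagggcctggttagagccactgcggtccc

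A match of letters is a description of these windows and shows no binding. The M-CAT letters began 49 bases before the start in Mypn, 163 in Tmod1, 80 in Myl1 and 62 in Mybpc2, and the CArG box of Ldb3 began 35 bases before the start. Both directions of change were thus present among genes with M-CAT in this window.

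Of the 3 tropomyosin genes, Tpm2 rose. Tpm2 codes for beta-tropomyosin, a minor form in the adult mouse heart, where alpha-tropomyosin from Tpm1 prevails. Tpm2 was at 86.6, 61.7 and 47.1 FPKM in HF week 5 and at 29.4, 24.9, 25.7, 19.2 and 38.1 FPKM in Control week 19. All HF libraries were above all controls, library 1 the most. The ratio of the group means was 2.37. Its log2 fold change was 1.22 (SE 0.26, adjusted p = 0.0026), and without HF week 5 library 1 it was 1.00 (adjusted p = 0.0317). Tpm2 is also made by smooth muscle and fibroblasts. The 6 smooth muscle genes summed to 216 to 307 FPKM in HF week 5 and 165 to 200.3 FPKM in Control week 19, with 3 of 6 called higher. The 8 fibroblast genes summed to 357 to 707 FPKM and 253 to 360.3 FPKM, with 6 of 8 called higher. Over all genes tested 11.6% were called higher. The part of smooth muscle and fibroblasts in the change of Tpm2 was not tested. Tpm1 was at 6396, 9816 and 8460.3 FPKM in HF and 9119 to 10086 FPKM in control hearts (log2 fold change -0.24, SE 0.17, adjusted p = 0.333, limma). Tpm3, a slow skeletal and non-muscle form, was at 35.2, 21.2 and 27.8 FPKM and 25.7 to 27.5 FPKM (log2 fold change 0.06, SE 0.18, adjusted p = 0.843, limma).

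Within the thick filament, 2 genes of fast skeletal muscle rose. Mybpc2, fast skeletal myosin binding protein C, was at 5.26, 8.605 and 4.16 FPKM in HF week 5 and at 2.21, 2.95, 2.66, 3.59 and 3.26 FPKM in Control week 19. Library 2 was the highest and library 3 the closest to the controls, and the log2 fold change was 0.88 (SE 0.24, adjusted p = 0.0136). Without HF week 5 library 2 the adjusted p of limma was 0.0931. Myl1, the fast skeletal and embryonic essential light chain, was at 665, 74.5 and 72.9 FPKM in HF and at 51.3, 50.2, 61.1, 53.3 and 44.1 FPKM in control hearts. Library 1 stood far above libraries 2 and 3, which were in turn above every control. For Myl1 the log2 fold change was 1.56 (SE 0.47, adjusted p = 0.0216), and without library 1 it was 0.51 (adjusted p = 0.179), so that the call rests on the library with the highest atrial genes. The adult cardiac members were not called. Myl3 was at 3561, 13712 and 13111 FPKM in HF and at 12487 to 15126 FPKM in control hearts: library 1 was low and libraries 2 and 3 were within the control range (log2 fold change -0.68, SE 0.33, adjusted p = 0.146, limma). It was called lower without library 2. Mybpc3, cardiac myosin binding protein C, was at 384, 778 and 685 FPKM in HF and 584 to 909.7 FPKM in control hearts (log2 fold change -0.44, SE 0.20, adjusted p = 0.115, limma). Mybpc3 was called lower without HF week 5 library 2, and without control library 5. Myh6 and Myl2 have no fold change here and are described with Actc1 further on.

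Of the 8 troponin genes, 2 rose and both were at low levels. Tnnt3, fast skeletal troponin T, was at 5.65, 1.002 and 1.39 FPKM in HF week 5 and at 0.541, 0.420, 0.421, 0.638 and 0.477 FPKM in Control week 19. Each HF library was above each control, library 1 by the most. For Tnnt3 the log2 fold change was 1.38 (SE 0.33, adjusted p = 0.00564), and without library 1 it was 0.76 (adjusted p = 0.0594). Tnni1, which the heart uses before birth, was at 11.4, 0.484 and 0.451 FPKM in HF and at 0.0683, 0.142, 0.287, 0.241 and 0.271 FPKM in control hearts. Its steps between libraries were those of whole fragments: after scaling by relative depth, 22 of 23 libraries were within 0.15 of a whole number, which put the controls at 1, 2, 4, 4 and 4 fragments, HF libraries 2 and 3 at 8 and 7, and library 1 at about 202. Counting error alone is therefore large outside library 1. In Tnni1 the log2 fold change was 1.68 (SE 0.54, adjusted p = 0.029), and without library 1 the gene no longer passed the filter on low values. It was not called without control library 1 or without control library 2 either.

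The adult troponins did not pass the test. Tnnt2, cardiac troponin T, was at 6741, 8549.8 and 6972 FPKM in HF week 5 and 8006 to 9465 FPKM in Control week 19 (log2 fold change -0.20, SE 0.15, adjusted p = 0.347, limma). Tnni3 was at 9427, 13074 and 11315 FPKM and 9519 to 13385 FPKM (log2 fold change 0.03, SE 0.19, adjusted p = 0.928, limma). Tnnc1, the calcium-binding subunit of slow and cardiac muscle, had a log2 fold change of -0.02 (adjusted p = 0.956, limma). Tnnt1, slow skeletal troponin T, was at 19.3, 37.7 and 30.9 FPKM in HF and 22.5 to 26.5 FPKM in control hearts: libraries 2 and 3 were above all controls and library 1 below them (log2 fold change 0.19, SE 0.18, adjusted p = 0.488, limma). In a model without the 3 libraries with the highest atrial sums, Tnnt1 was called higher, with a log2 change of 0.46 (adjusted p = 0.0425). The fast forms Tnni2 and Tnnc2 had log2 fold changes of 0.14 (adjusted p = 0.843, limma) and -0.35 (adjusted p = 0.503, limma), with Tnnc2 at 2 to 13 fragments in the HF libraries.

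**Figure D3:**
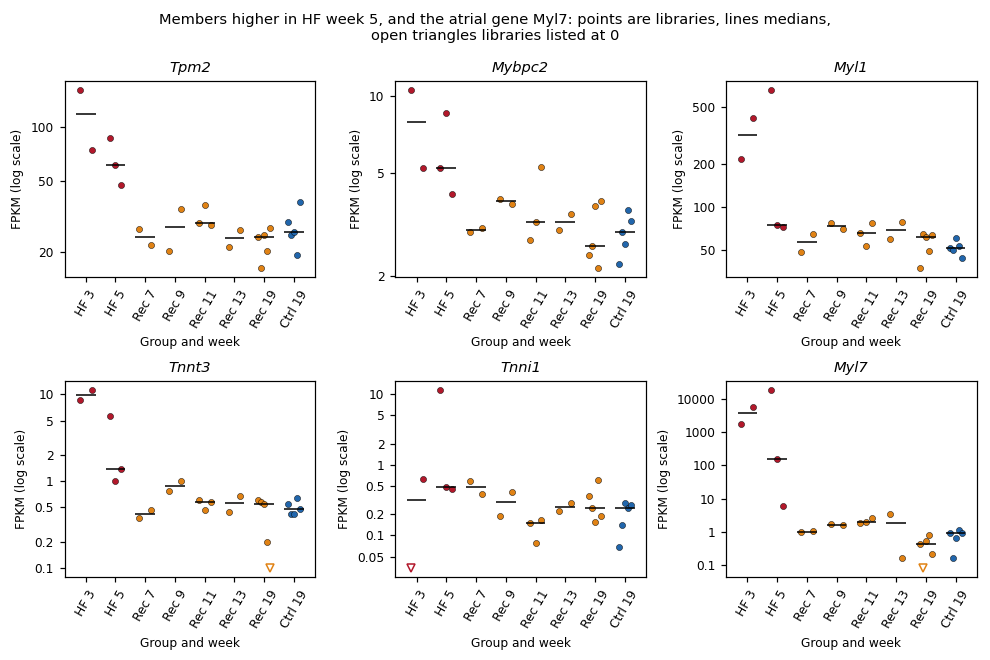
FPKM (y axis, log scale) of the 5 members higher in HF week 5 and of the atrial gene Myl7, in each library by group and week (x axis). Points are libraries, lines medians and open triangles libraries listed at 0. Myl1, Tnnt3 and Tnni1 have their highest HF week 5 point in library 1, as Myl7 does, while Tpm2 is above the controls in all 5 HF libraries and Mybpc2 in all 5 as well.

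Titin, the M-band and the intermediate filament genes were not called in HF week 5. Ttn was at 433, 592 and 474 FPKM in HF and 373 to 454 FPKM in control hearts (log2 fold change 0.28, SE 0.21, adjusted p = 0.354, limma). The myomesin genes had log2 fold changes of -0.02 for Myom1 (adjusted p = 0.948), 0.01 for Myom2 (adjusted p = 0.957) and 0.58 for Myom3 (adjusted p = 0.183), all from limma. Des, desmin, which ties Z-discs together, was at -0.01 (adjusted p = 0.969, limma) and Smpx at 0.27 (adjusted p = 0.249, limma). The standard errors of these log2 fold changes ran from 0.15 to 0.31.

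**Figure D4:**
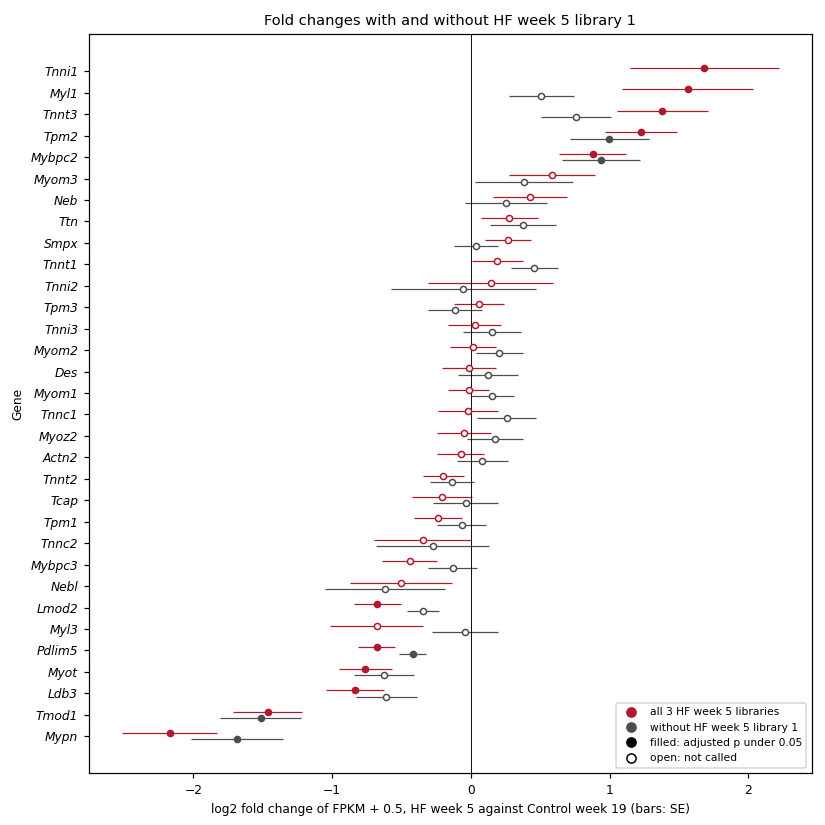
The log2 fold change of FPKM + 0.5 in HF week 5 against Control week 19 (x axis, bars are SE) for the members with a fold change (y axis), with all 3 HF week 5 libraries in red and without library 1 in grey. Filled points have an adjusted p under 0.05; 11 red and 5 grey points are filled, and Tnni1 has no grey point since it did not pass the filter.

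By class, 0 of 14 adult heart isoforms with a fold change were higher and 2 (Ldb3 and Lmod2) were lower (14.3%, near the 12.4% of all genes tested), with a median log2 fold change of -0.20. Of the 5 isoforms of fast skeletal muscle, 3 (Myl1, Tnnt3 and Mybpc2) were higher, against 11.6% of all genes tested. Tnnt1 and Tpm3, of fetal heart or slow skeletal muscle, were not called, and Tnni1 of the same class counts for nothing here. Without HF week 5 library 1, 5 members were called in place of 11, and the share of all genes called also fell, from 24.0% to 10.6%: the 5 were Mypn, Tmod1 and Pdlim5 lower and Tpm2 and Mybpc2 higher. With both HF week 3 libraries left out as well, 10 members and 20.2% of all genes tested were called, while library 2, with an atrial sum of 431 FPKM, remained in the model: the same 6 lower genes, and Tpm2, Mybpc2, Tnnt3 and Tnnt1 higher. Myl1 and Tnni1 were the called members of the full model that this one did not call. The part of atrial tissue in the levels of library 1 was not tested beyond these values. In tissue RNA of this kind, fewer cells of a type and less RNA per cell cannot be told apart: of 17 other cardiomyocyte genes with no sarcomere protein, 8 were lower and 0 higher in HF week 5 (47.1%, against 12.4% lower among all genes tested), with a median log2 fold change of -0.56. The sum of the 17 was 28145 FPKM in HF week 5 library 1. In libraries 2 and 3 it was 56603 and 51642 FPKM, within the 48758 to 59845 FPKM of Control week 19.

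Isoform balance was also compared within each library, as the ratio of a fetal, skeletal or minor isoform to its adult cardiac counterpart (both with 0.5 FPKM added). Such a ratio hardly depends on the scaling of the library where both genes are far above 0.5 FPKM. Tnni1 was not, outside HF week 5 library 1. For 5 ratios in 3 comparisons, 15 tests were made with a two-sided exact permutation test on the log2 ratios; with 3 against 5 libraries the smallest p it can give is 0.0357 before the adjustment over 15 tests. Tpm2 was at 13.6, 6.34 and 5.62 per 1000 of Tpm1 in HF week 5 and at 3.15, 2.58, 2.87, 1.95 and 4.15 per 1000 in Control week 19. The groups did not overlap: the log2 ratio differed by 1.46 (exact permutation p = 0.0357, adjusted p = 0.238). In Recovery week 19 the ratio was 3.699, 1.76, 2.68, 2.47 and 2.49 per 1000, and the log2 ratio differed from HF week 5 by -1.62 (exact permutation p = 0.0357, adjusted p = 0.238).

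Tnni1 was at 1.27, 0.0752 and 0.0841 per 1000 of Tnni3 in HF week 5 and at 0.0521 to 0.0827 per 1000 in Control week 19, a difference in log2 ratio of 1.65 (exact permutation p = 0.0714, adjusted p = 0.268) that was 0.32 without library 1. Outside that library the added 0.5 FPKM was larger than the level of Tnni1 in both groups, so these ratios are no measured balance. With pseudocounts of 0.1 and 1 the difference ran from 1.29 to 2.40. Tnnt1 was at 2.94, 4.47 and 4.505 per 1000 of Tnnt2 in HF and at 2.803 to 3.38 per 1000 in control hearts (difference 0.39, exact permutation p = 0.107, adjusted p = 0.321). Tpm3 was at 5.58, 2.21 and 3.34 per 1000 of Tpm1 in HF and at 2.699 to 2.87 per 1000 in control hearts (difference 0.30, exact permutation p = 0.571, adjusted p = 0.714). Myom2 and Myom1 were at similar levels, with 767, 830.3 and 772 of Myom2 per 1000 of Myom1 in HF and 569 to 902 in control hearts (difference 0.03, exact permutation p = 1, adjusted p = 1). In Recovery week 19 against Control week 19 the lowest p was that of Tpm3 to Tpm1, at 2.67 to 4.74 against 2.699 to 2.87 per 1000 (difference 0.37, exact permutation p = 0.0476, adjusted p = 0.238). None of the 15 ratios had an adjusted p under 0.05, and 3 had an unadjusted exact permutation p under 0.05: both Tpm2 to Tpm1 differences with HF week 5, and this one. At the smallest exact permutation p of 0.0357, a comparison with HF week 5 passes the adjustment only if most of the 15 tests are that low. The adjusted outcome with HF week 5 was thus nearly fixed by the number of libraries, and no conclusion is drawn from it.

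Myh6, Myl2 and Actc1, abundant contractile genes of the heart, could be compared only in part. Myh6, the adult alpha-myosin heavy chain, was listed at 0 in all libraries of Control week 19, HF week 5 and Recovery week 19, and at 37546 and 301793 FPKM in HF week 3. In recovery it was listed at 106008 and 143712 FPKM at week 7, 155579 and 175739 FPKM at week 9, 180964, 205935 and 200142 FPKM at week 11 and 316195 and 241739 FPKM at week 13. The groups of weeks 7, 9 and 11 did not overlap and followed the order of the weeks. Week 13 was higher again. Alpha-myosin is needed for the beat of every adult mouse heart, and for such a gene a 0 in whole groups can be a failed estimate, so it is given only as listed. Of the 207 genes with a group median over 1000 FPKM in some group, 9 were listed at 0 in all of Control week 19, 7 in all of Recovery week 19 and 5 in all of HF week 5.

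Myl2, the ventricular regulatory light chain, was listed at 0 in all Control week 19 libraries. It was at 10122 and 18753 FPKM in HF week 3, 10778, 36208 and 35940.0 FPKM in HF week 5 and 22538, 31697, 28255, 26221 and 40594 FPKM in Recovery week 19. HF week 5 library 1 was low, as it was for Myl3, and libraries 2 and 3 were within the range of week 19. Its log2 fold change in Recovery week 19 against HF week 5 was 0.28 (SE 0.30, adjusted p = 0.534). From week 7 to week 13 it was at 20697 to 42002 FPKM. Actc1, cardiac alpha-actin, was also listed at 0 in all Control week 19 libraries. It was at 2072 and 3320.0 FPKM in HF week 3, 2788, 5762 and 5251 FPKM in HF week 5, 7326 to 10265 FPKM over recovery weeks 7 to 13 and 8146, 10530.0, 8473, 8306 and 10720.4 FPKM in Recovery week 19. All 5 HF libraries were below all 14 recovery libraries. The log2 fold change in Recovery week 19 against HF week 5 was 1.06 (SE 0.19, adjusted p = 0.000867). Acta1, the skeletal alpha-actin that the fetal and stressed heart uses, was higher in HF week 5 and lower in recovery, at 578, 1317 and 1236 FPKM in HF week 5 and 306, 682, 234, 239.9 and 527 FPKM in Recovery week 19 (log2 fold change -1.44, SE 0.43, adjusted p = 0.0195, limma). The coding parts of these actins are nearly identical, and how reads that fit both were shared is not given in the sources used here.

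**Figure D5:**
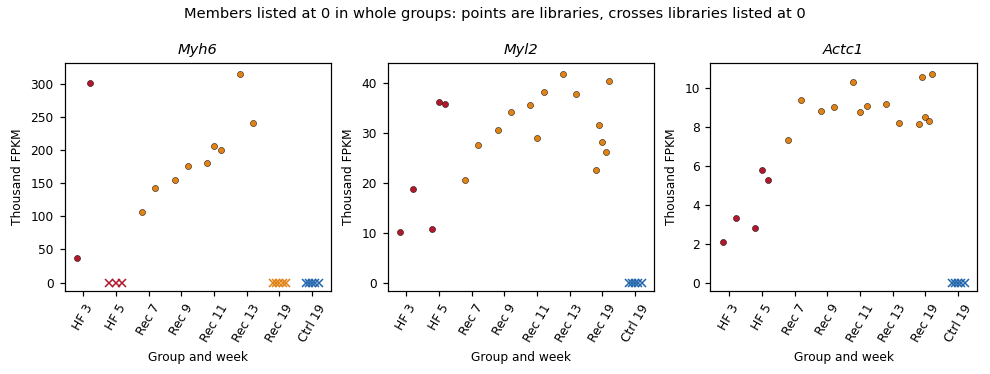
Levels in units of 1000 FPKM (y axis) of Myh6, Myl2 and Actc1 in each library by group and week (x axis). Points are libraries and crosses libraries listed at 0. Myh6 is listed at 0 in Control week 19, HF week 5 and Recovery week 19, and Myl2 and Actc1 in Control week 19.

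At HF week 3, before the end of induction, 17 of 32 members were called against Control week 19 (53.1%), 6 higher and 11 lower; over all genes tested 50.7% were called, 23.1% higher and 27.6% lower, so that the members' share was near that of all genes. Both libraries were high in atrial genes. The lower members included the 6 genes that were lower at week 5. Mypn was at 0.327 and 0.529 FPKM (log2 fold change -3.48, SE 0.40, adjusted p = 1.75e-06, limma) and Ldb3 at 97.1 and 226 FPKM (log2 fold change -1.92, SE 0.24, adjusted p = 5.16e-06, limma). Tmod1 was at 14.8 and 6.11 FPKM (log2 fold change -1.48, SE 0.29, adjusted p = 0.000361, limma), Lmod2 at 58.5 and 61.5 FPKM, Pdlim5 at 128 and 136 FPKM and Myot at 14.6 and 14.9 FPKM. In each of these 6 genes both HF week 3 libraries were below all controls; over all genes tested the libraries of these groups did not overlap for 45.3%. The other 5 lower members were Nebl, Tnnc2, Tnnt2, Tpm1 and Actn2.

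The higher members at HF week 3 were Tnnt3, Tnni2, Myl1, Tpm2, Mybpc2 and Tpm3. Tnnt3 was at 8.56 and 11.3 FPKM (log2 fold change 3.37, SE 0.38, adjusted p = 1.53e-06, limma) and Tpm2 at 163 and 75.02 FPKM (log2 fold change 2.03, SE 0.30, adjusted p = 2.71e-05, limma). Myl1 was at 218 and 425 FPKM and Tnni2, fast skeletal troponin I, at 83.3 and 10.3 FPKM, against 2.82 to 4.16 FPKM in control hearts. Tnni1 was listed at 0 and 0.631 FPKM, the second value being about 13 fragments. The 2 libraries differed from each other in several members, among them Ldb3, Nebl, Tpm2 and Tnni2. Without HF week 3 library 1, 11 of the members were called, 4 higher and 7 lower, and 30.1% of all genes tested.

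The next question was what changed after the treatment ended. Between HF week 5 and Recovery week 19, 13 of the 34 members with a fold change were called (38.2%), 7 higher and 6 lower in recovery. Tnni1 is among the 6, and since it entered the test only through HF week 5 library 1, its call supports nothing here either. Over all genes tested 24.3% were called, 12.3% higher and 12% lower, and under median centring these calls split into 1807 higher and 1184 lower in place of 1567 and 1522. The libraries of the groups did not overlap for 13 of the members, against 26.8% of all genes tested. This comparison uses the same HF libraries as the one against Control week 19, so that the reversal of direction in a gene is not a separate piece of evidence. The 6 genes of the Z-disc and the pointed end that were lower in HF were all higher in Recovery week 19. Mypn was at 14.5, 11.01, 11.4, 12.6 and 6.54 FPKM (log2 fold change 2.31, SE 0.34, adjusted p = 0.000194, limma) and Tmod1 at 32.5, 33.1, 32.3, 31.5 and 20.7 FPKM (log2 fold change 1.57, SE 0.25, adjusted p = 0.000308, limma). Ldb3 was at 527, 576, 565, 519 and 645 FPKM (log2 fold change 0.84, SE 0.21, adjusted p = 0.00756, limma). Pdlim5 was at 226, 239.8, 235, 246 and 239 FPKM, Myot at 28.9, 19.4, 28.2, 30.1 and 29.2 FPKM and Lmod2 at 160.2, 171, 174, 153 and 143 FPKM. For all 6 the recovery libraries were above the HF week 5 libraries. Without HF week 5 library 1, Ldb3 at 0.61 (adjusted p = 0.0762) and Lmod2 at 0.31 (adjusted p = 0.0856) were not called (log2 fold changes, limma).

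The members lower in Recovery week 19 than in HF week 5 were the 5 that had been higher in HF, with Myom3, the third myomesin of skeletal muscle. Tpm2 was at 24.2, 16.1, 24.9, 20.1 and 27.02 FPKM (log2 fold change -1.49, SE 0.26, adjusted p = 0.000602, limma) and Tnnt3 at 0.611, 0.582, 0.542, 0.198 and 0 FPKM (log2 fold change -1.61, SE 0.33, adjusted p = 0.00198, limma). Myl1 was at 37.3, 64.8, 61.6, 48.9 and 63.5 FPKM (log2 fold change -1.50, SE 0.47, adjusted p = 0.0261, limma), and without HF week 5 library 1 its log2 fold change was -0.44 (adjusted p = 0.235); it was not called without Recovery week 19 library 1 either. Mybpc2 was at 2.399, 2.61, 3.74, 2.14 and 3.89 FPKM (log2 fold change -0.89, SE 0.24, adjusted p = 0.0127, limma), with an adjusted p of 0.0894 without HF week 5 library 2. Tnni1 was at 0.364, 0.246, 0.154, 0.618 and 0.187 FPKM, with a log2 change of -1.49 (SE 0.54, adjusted p = 0.0498, limma) that was called in 4 of 15 alternatives and again supports nothing. Myom3 was at 2.31, 1.75 and 1.03 FPKM in HF and 0.962, 0.516, 0.736, 0.680 and 0.399 FPKM in recovery (log2 fold change -0.90, SE 0.31, adjusted p = 0.0409, limma), and was not called without HF week 5 library 1 or 2 or without Recovery week 19 library 2, 3, 4 or 5 (highest adjusted p over the alternatives 0.21, limma). The log2 fold change of Ttn was -0.57 (SE 0.21, adjusted p = 0.0527), with the 3 HF libraries above the 5 of recovery, and it was called without Recovery week 19 library 1 or library 3.

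Against Control week 19, 0 of 32 members were called in Recovery week 19 (limma), as were 0% of all genes tested. At an unadjusted p under 0.05 there was 1 member, Tnnc2, with a log2 fold change of -0.64 at 1 to 10 fragments a library, and 363 of all genes tested. Mypn differed by 0.14 (SE 0.30, adjusted p = 1), Tmod1 by 0.10 (SE 0.22, adjusted p = 1), Ldb3 by 0.00 (SE 0.18, adjusted p = 1) and Tpm2 by -0.27 (SE 0.22, adjusted p = 1) on the log2 scale (limma). Of the 32 members, 1 had no overlap between the groups, as had 1.15% of all genes tested: Tpm3, at 31.2, 36.99, 29.4, 32.8 and 28.9 FPKM in Recovery week 19 and 26.5, 27.5, 25.7, 26.7 and 25.7 FPKM in control hearts. Its log2 fold change was 0.26 (SE 0.16, adjusted p = 1).

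The recovery weeks between gave 0 called members against Control week 19 at weeks 7, 9, 11 and 13 (limma), and 0% of all genes tested in each. At an unadjusted p under 0.05 there were 0 members at week 7, 2 at week 9 (Lmod2 and Myom2), 0 at week 11 and 5 at week 13 (Ttn, Tnnt1, Myoz2, Myot and Mypn), against 452 to 1321 of all genes tested at these weeks. When only the libraries of week 13 and Control week 19 were in the model, 1 member and 2.35% of all genes tested were called: the member was Ttn, lower at week 13 (log2 fold change -0.56, adjusted p = 0.0298 from limma). At week 11 such a model called 86 genes higher and 25 lower of 12716 tested. The model without the 3 libraries with the highest atrial sums called 158 higher and 34 lower of 12566 at week 11. The 0% of the full model thus depended on the libraries in it. Week 7 was not tested against HF week 5, and its levels are given as a description. Mypn was at 8.15 and 10.3 FPKM at week 7, above all HF week 5 libraries, then at 4.19 to 10.5 FPKM over weeks 9 to 13. Tmod1 was at 32.98 and 30.7 FPKM at week 7 and at 19.6 to 28.2 FPKM over weeks 9 to 13. Both genes were lower at week 13 than at week 7 in each library. Ldb3 was at 412 and 603 FPKM at week 7, the lower of which was level with HF week 5 library 2, and at 516 to 585 FPKM over weeks 9 to 13. Pdlim5 was at 196 to 259 FPKM and Lmod2 at 178 to 249.8 FPKM over weeks 7 to 13, above the HF week 5 libraries. Tpm2 was at 20.02 to 36.7 FPKM, below them.

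Some members had levels outside the control range in single recovery weeks without passing the test. Ttn was at 423 and 422 FPKM at week 7, 402 and 350.4 FPKM at week 9, 337, 381 and 292 FPKM at week 11 and 288 and 268 FPKM at week 13, against 373 to 454 FPKM in control hearts. The 2 libraries of week 13 were below all controls (log2 fold change -0.56, SE 0.24, adjusted p = 0.431, limma). Lmod2 was highest at week 9, at 249.8 and 217 FPKM against 141 to 189 FPKM in control hearts (log2 fold change 0.51, SE 0.19, adjusted p = 0.999, limma). Tnnt1 was at 36.1 and 31.5 FPKM at week 13 (log2 fold change 0.44, SE 0.21, adjusted p = 0.479, limma). Over recovery weeks 7 to 13, Tnnt2 was at 6211 to 9370.3 FPKM, Tpm1 at 8261 to 10809 FPKM, Actn2 at 542 to 668 FPKM and Myom1 at 141 to 176 FPKM.

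Beyond the 35 genes, a list of 50 other sarcomere genes gave 40 with a fold change in HF week 5 against Control week 19, of which 17 were lower and 5 higher (55%, against 24.0% of all genes tested), with a median log2 fold change of -0.30. This list was chosen with earlier results of these data known, so its share is a description only. The largest falls were those of Trim55, a ubiquitin ligase of the M-band region, at 1.19, 1.43 and 1.82 FPKM in HF and 5.91 to 11.3 FPKM in control hearts (log2 fold change -2.31, SE 0.30, adjusted p = 7.27e-05, limma), and Palld, palladin, a relative of myopalladin, at 2.09, 2.94 and 1.71 FPKM and 5.46 to 15.2 FPKM (log2 fold change -2.18, SE 0.38, adjusted p = 0.000641, limma). Synpo2, a Z-disc actin binder, changed by -1.60 (SE 0.28, adjusted p = 0.000655) on the log2 scale and Fhl2, a LIM protein, by -1.07 (SE 0.21, adjusted p = 0.00181) (limma). The largest rises were those of Mybphl, an atrial relative of myosin binding protein, at 487, 5.89 and 0.247 FPKM in HF and 0 to 0.138 FPKM in control hearts, highest in library 1, and of Acta1 (log2 fold change 2.18, SE 0.43, adjusted p = 0.00147, limma), Pdlim3 (1.51, SE 0.23, adjusted p = 0.000215, limma) and Ankrd1 (1.20, SE 0.25, adjusted p = 0.00235, limma). Mybphl passed the filter only through HF libraries in which it was high, so its call among the 5 higher supports nothing. Ankrd1, which binds myopalladin and titin, was at 708, 954 and 643 FPKM in HF and 273 to 388 FPKM in control hearts, and so was higher in the same libraries in which Mypn was lower. In Recovery week 19 against HF week 5, 14 of 40 were higher and 5 lower, and against Control week 19, 0 of 40 were called.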

How the data were processed

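Mouse ventricle RNA was sequenced from both ends. Alignment by the authors used TopHat2 and build mm9, and Cuffdiff gave the deposited FPKM values, per the submitters' processing notes and the study's methods. Annotation, strandedness and the handling of reads shared by paralogs are not given in the sources used here, and the absolute depth is unknown; steps between low values gave relative depths of 0.723 to 1.39 in 23 libraries. The column names show the week, which set the group, and library numbers identify no animal. The 5 week 5 control columns, for 4 labelled samples, were not used, and Recovery week 9 has 2 columns for 3 labelled samples. The labels' recovery weeks start at the end of the 5 weeks of induction.

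Genes with a mean of 0.5 FPKM or more (12759) were fitted as log2(FPKM + 0.5) with limma 3.58.1 in R 4.3.3, with all 8 groups, 24 libraries and 16 residual degrees of freedom. P-values were adjusted by the Benjamini-Hochberg method across every gene tested in a comparison, and genes listed at 0 in a whole group were left out of its comparisons. Ratios were tested with exact permutation tests in Python 3.11.15 with scipy 1.17.1. Both steps were tested on simulated data. The members and gene lists were chosen with earlier results of these data known. Full values were given for up to 12 members with the largest change among those called in HF week 5, for the ratio pairs and for the 4 largest rises and falls of the other sarcomere genes; further members were named after their values were seen. The alternatives were pseudocounts of 0.1 and 1, no filter and a filter at 1 FPKM, only the groups compared, median centring, quantile normalization and zeros taken as missing. Further alternatives left out the HF week 3 libraries, or each library in turn. Those that left out the 3 libraries with the highest atrial sums were added after seeing the data.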

Additional observations from a re-analysis of the deposited data

Results flagged for a closer look

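In groups of 5 libraries, a library was singled out where its gap to the nearest other library was over 0.71 of the range of its group (Dixon's 95% critical value). Of 66 groups of member values, 6 held such a library, and chance gives about 1 in 20, or 3.3 of 66. Tmod1 was lowest in Control week 19 library 5, at 15.9 FPKM, and in Recovery week 19 library 5, at 20.7 FPKM; both were above all HF week 5 libraries. Smpx was highest in Control week 19 library 5, at 370.2 FPKM. Myot was lowest in Recovery week 19 library 2, at 19.4 FPKM. Tnnc2 was highest in Recovery week 19 library 3, at 1.22 FPKM, or about 9 fragments. Neb was highest in Recovery week 19 library 1, at 1.395 FPKM.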

How the results depend on the processing

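In HF week 5 against Control week 19, 11 members were called, between 5 and 12 with 1 library left out (5 without HF week 5 library 1) and between 9 and 14 under the other alternatives. Over all genes tested 24.0% were called, and 10.6% without HF week 5 library 1. With only the groups compared, 9 members were called, and 1556 genes higher and 1624 lower of 12721 tested. Without the HF week 3 libraries, 12 members were called, and 2146 genes higher and 2164 lower of 12643 tested. The counts of members thus moved with those of all genes. In Recovery week 19 against HF week 5 the 13 calls became 9 to 13 and 10 to 15. Over all genes tested 24.3% were called there. Without the HF week 3 libraries 2137 genes were higher and 2183 lower of 12648 tested. In HF week 3 against Control week 19 the 17 calls became 11 to 19 with 1 library left out (11 without HF week 3 library 1) and 14 to 20. Over all genes tested 50.7% were called, and 30.1% without HF week 3 library 1. The 0 calls of Recovery week 19 against Control week 19 became 1 at an unadjusted p under 0.05, and those of recovery weeks 7 to 13 became 1 with only the groups compared in the model and 7 at an unadjusted p under 0.05. Of the members called in HF week 5, 7 of 11 lost the call under at least 1 alternative, and Mypn, Tmod1, Pdlim5 and Tpm2 were called under all 19. Of those called in Recovery week 19 against HF week 5, 6 of 13 lost it. None of the called members changed sign, and none of the 15 isoform ratios passed its adjusted threshold, under the alternatives run. For the ratios with HF week 5 the number of libraries made this nearly certain beforehand. The Tnni1 to Tnni3 difference between HF week 5 and Control week 19 ran from 0.32 to 2.36 with 1 library left out and from 1.29 to 2.40 with the other pseudocounts. No paired analysis was possible because the columns carry no animal letter that could link libraries of different groups. Tnni1 and Tnnc2 rest on few fragments in most libraries, Tnnt3, Neb and Myom3 also averaged under 1 FPKM in control hearts, and 2 to 5 libraries in a group limit all comparisons.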

Other observations

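Within the Control week 19 group, library 5 was the lowest for several genes of the Z-disc and thin filament end that were lower in HF week 5. Mypn was at 5.37 FPKM there and at 9.59 to 14.4 FPKM in the other control libraries, Tmod1 at 15.9 FPKM and 29.3 to 34.3 FPKM, and Ldb3 at 476.5 FPKM and 556 to 628 FPKM. Mypn and Tmod1 were also lowest in library 5 of Recovery week 19, at 6.54 FPKM and 20.7 FPKM. Ldb3 was highest there, and Pdlim5 and Myot were not lowest in Control week 19 library 5. The shared library number links no animals. Among these genes the HF week 5 libraries were lower still. In each of these groups library 5 also had the highest atrial sum, 12.3 FPKM against 8.21 to 9.67 FPKM in Control week 19 and 10.06 FPKM against 7.99 to 9.20 FPKM in Recovery week 19. Its sum of 8 endothelial genes was 3529 FPKM against 1672 to 2039 FPKM in Control week 19 and 2699 FPKM against 1923 to 2140 FPKM in Recovery week 19. The erythroid sum was 7297 FPKM against 2708 to 5147 FPKM in Control week 19 and 6720 FPKM against 1729 to 3264 FPKM in Recovery week 19. The sums of leukocyte genes and of other cardiomyocyte genes were highest in library 5 of both groups too. So was the summed FPKM of all genes, at 900360 FPKM against 690898.5 to 770599 FPKM in Control week 19. In Recovery week 19 that total was 1011547 FPKM against 618138 to 864569 FPKM. The marker sums were not scaled to this total, so they show no difference in cell types. The part of these differences in the levels of Mypn, Tmod1 and Ldb3 was not tested.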
